A study of Mus musculus with 9 samples.

Results

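The cytosolic chaperonin CCT, also called TRiC, is described here through the 8 genes that encode its subunits in rat liver: Tcp1, Cct2, Cct3, Cct4, Cct5, Cct6a, Cct7 and Cct8. They were chosen by symbol, as the 8 rows of these names among 37203 gene rows of a count table: the rule used no measured value, though earlier results of these data were known when the complex was picked. All 8 held enough counts to be tested. CCT is a barrel of a pair of stacked rings, each ring built from 1 copy of every subunit, and it uses ATP to close over unfolded proteins in the cytosol. It is best known for folding actin and tubulin, which most other chaperones cannot fold, and it also folds many proteins with WD40 repeats. The hexameric chaperone prefoldin hands unfolded chains to it, phosducin-like proteins adjust its work, and in mouse cells heat shock factor 1 can switch its genes on.

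RNA came from the livers of Wistar rats described as male, with 3 libraries in each of 3 groups. The schisandrin B group received the liver toxin CCl4 (carbon tetrachloride) as a 50% mixture in olive oil at 2 mL/kg by gavage 3 times a week for 8 weeks. After the first 4 weeks these rats were also dosed each day for 4 weeks with schisandrin B, a lignan from the fruit of Schisandra. Doses of 25 and 50 mg/kg were used, and no label says which of them the libraries represent. The fibrosis group received the same CCl4 course without schisandrin B. The normal group received an equal volume of olive oil in its place, so every group was given olive oil. Whether each library is a different animal is not stated in the labels, so every SD and p-value here reflects differences among libraries that may be technical.

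Library totals ran from 10320299 to 16255167 counts, and a subunit held between 348 and 6323 counts in a library. The spread between libraries was above the Poisson counting error for 8 of 8 subunits in fibrosis and in normal libraries, and for 5 of 8 in schisandrin B libraries. In the schisandrin B libraries Cct2, Cct4 and Cct7 varied by less than counting error alone gives. The libraries labelled normal went against the description of the animals as male. The Y-linked genes Kdm5d and Eif2s3y were at 5.91 to 13.3 CPM (counts scaled to library size, here with TMM factors) in the 6 libraries of the other groups and at 0 counts in these 3. Ddx3y, the third Y-linked gene in the table, was low in all groups and did not separate them, at 0.51 to 1.53 CPM with schisandrin B, 0.97 to 1.53 CPM in fibrosis and 0.81 to 2.59 CPM in normal libraries. A difference from the libraries labelled normal therefore joins CCl4 and a possible difference in sex, which cannot be told apart there, whereas schisandrin B against fibrosis is free of this mismatch. Fibrosis replicate 1 stood apart from its group for several chaperones and was the highest fibrosis library for all 8 subunits, so the subunits' results are also given without it. Replicate numbers here follow the order of the samples and pair nothing across groups. The hepatocyte markers Alb, Ttr, Apoa1 and Tf were abundant in every library.

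Transcripts of all 8 subunits were about 2 to 3 times as abundant in fibrosis libraries as in either other group, and they stood near the normal level with schisandrin B. Their summed level, in CPM, was 591, 627 and 572 in schisandrin B libraries, 2138, 1438 and 1316 in fibrosis libraries, and 669, 536 and 575.5 in normal libraries. The 3 fibrosis libraries lay above all 6 others, and the schisandrin B libraries lay within the normal range. The means were 597 ± 27.97, 1631 ± 444 and 594 ± 67.9 CPM in the same order (SD, n = 3 each). Because these are bulk samples, more cells of a type and more RNA per cell cannot be told apart.

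**Figure D1:**
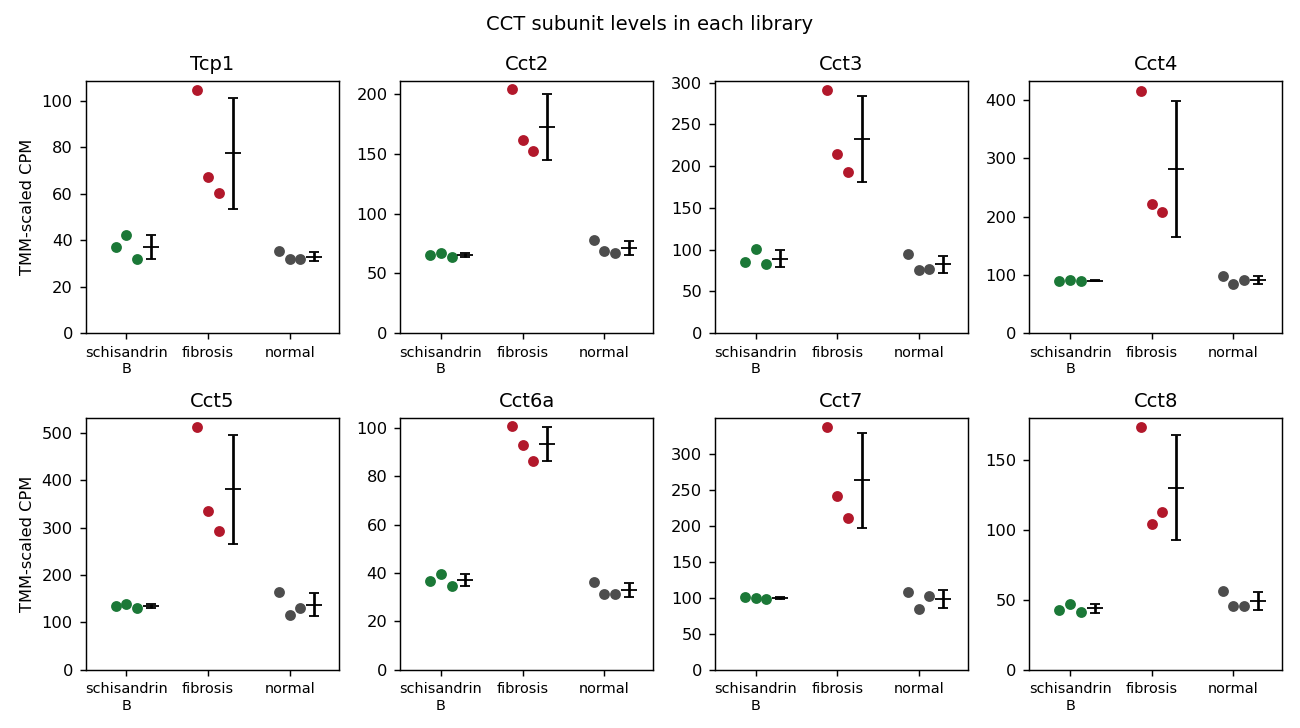
TMM-scaled CPM (vertical axes, from 0) of each CCT subunit in the 3 schisandrin B, 3 fibrosis and 3 normal libraries; points are libraries in replicate order, and the bar beside them is the mean ± SD. In every panel the 3 fibrosis libraries lie above the 6 others, with fibrosis replicate 1 highest.

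Cct4, Cct2 and Cct5 encode subunits that contact unfolded actin in the bovine complex. Cct4 stood at 89.6, 91.7 and 88.8 CPM in schisandrin B libraries, 416, 221 and 208.5 CPM in fibrosis libraries, and 97.7, 84.4 and 90.8 CPM in normal libraries. The highest fibrosis library was 2.00 times the lowest, the widest such spread of the 8 subunits, yet even the lowest was 2.13 times the highest library of the other groups. Cct2 stood at 65.6, 66.6 and 63.3 CPM in schisandrin B libraries, 204, 161 and 152 CPM in fibrosis libraries, and 78.2, 68.3 and 66.8 CPM in normal libraries. Cct5, whose human counterpart is mutated in a hereditary sensory neuropathy, stood at 135, 139 and 131 CPM in schisandrin B libraries, 512, 336 and 294 CPM in fibrosis libraries, and 164, 116 and 130.3 CPM in normal libraries. For Cct2 and Cct5 too, each fibrosis library was above each of the other 6.

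Cct3, Cct6a and Cct8 encode the counterparts of the subunits that bind ATP weakly in the yeast complex. Cct3 stood at 84.7, 100.4 and 82.5 CPM in schisandrin B libraries, 291, 215 and 192 CPM in fibrosis libraries, and 94.3, 75.5 and 76.8 CPM in normal libraries. Cct6a stood at 36.6, 39.7 and 34.7 CPM in schisandrin B libraries, 100.6, 92.9 and 86.4 CPM in fibrosis libraries, and 36.1, 31.2 and 31.3 CPM in normal libraries. Its fibrosis libraries were the most alike of any subunit, with a highest value 1.16 times the lowest. Cct8, whose human counterpart is abundant in embryonic stem cells, stood at 42.6, 47.3 and 41.5 CPM in schisandrin B libraries, 173, 104 and 112 CPM in fibrosis libraries, and 56.1, 45.2 and 45.8 CPM in normal libraries. No fibrosis library of these 3 genes came near the range of the other groups.

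Tcp1 encodes subunit alpha, the first to be found, and Cct7 encodes subunit eta. Tcp1 stood at 36.98, 42.1 and 31.8 CPM in schisandrin B libraries, 104.8, 67.2 and 60.3 CPM in fibrosis libraries, and 35.1, 31.8 and 31.9 CPM in normal libraries. It had the narrowest gap of the 8, with the lowest fibrosis library 1.43 times the highest other library. Cct7 stood at 100.5, 100 and 98.3 CPM in schisandrin B libraries, 337, 241 and 210.5 CPM in fibrosis libraries, and 107.5, 83.7 and 102 CPM in normal libraries. The schisandrin B libraries of Cct7 were within 1.02 times of each other.

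The first comparison set livers given CCl4 in olive oil against livers given olive oil alone. Of the 8 subunits, 8 rose and 0 fell in fibrosis libraries, by edgeR's quasi-likelihood test with Benjamini-Hochberg adjustment over all 14581 genes tested and a threshold of 0.05. In this comparison 48.3% of all genes passed, 25.4% as higher and 22.9% as lower, so a call alone was common. The 8 log2 fold changes lay close together, between 1.23 ± 0.22 for Tcp1 and 1.63 ± 0.25 for Cct4 (SE), with a median of 1.45 against 0.03 over all genes tested. As folds they ran from 2.35 to 3.10, and 17.8% of all genes were called and at least 2-fold higher, as all 8 subunits were. Cct6a had the lowest edgeR adjusted p, 1.95e-05, and Tcp1 the highest, 0.00072. On the scale of all genes the subunits stood between the 85.0th and the 90.4th percentile of the log2 fold change, so they were a uniform but not an extreme group. The groups did not overlap for any subunit, which held for 29% of all genes in the higher direction. Without fibrosis replicate 1 all 8 were still called, with log2 fold changes of 0.95 to 1.45.

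The second comparison set livers given CCl4 and schisandrin B against livers given CCl4 alone. All 8 subunits fell and 0 rose in the schisandrin B libraries, beside 24.8% of all genes called lower and 47.3% called in either direction. The fall was smallest for Tcp1, by 1.06 ± 0.22 on the log2 scale, and largest for Cct4, by 1.65 ± 0.25 (SE), with a median of -1.40 against -0.03 over all genes. Cct8 fell by 1.57 ± 0.21, Cct5 fell by 1.49 ± 0.23 and Cct2 fell by 1.40 ± 0.17. The edgeR adjusted p ran from 5.08e-05 for Cct6a to 0.00188 for Tcp1. The level with schisandrin B was 0.32 to 0.478 times the fibrosis level, and all 8 were called and at least 2-fold lower, as were 17% of all genes. No subunit's groups overlapped, beside 29% of all genes in the lower direction. Without fibrosis replicate 1 all 8 kept the call, with log2 fold changes of -1.31 to -0.79. This comparison shares the fibrosis libraries with the one before. The opposite direction of the change, and its extremes at Cct4 and Tcp1, are therefore not separate evidence. Between these extremes the order of the subunits differed.

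Schisandrin B against normal asks how far livers given CCl4 and schisandrin B stood from livers given olive oil alone. No subunit was called by edgeR, beside 10.5% of all genes, and 0 of 8 had an unadjusted p under 0.05. DESeq2 and limma voom called 0 of 8 as well, also with 0 under an unadjusted p of 0.05. The log2 fold changes ran from -0.16 for Cct8 to 0.17 for Cct6a, with adjusted p from 0.521 to 0.98. Their 95% intervals reached from -0.62 at the lowest to 0.64 at the highest. For the least certain subunits these intervals do not exclude a level 0.652-fold or 1.56-fold that of normal libraries. Cct6a had the tightest interval, -0.16 to 0.50. Cct2 was lower in all 3 schisandrin B libraries than in any normal library, with a log2 fold change of -0.13 ± 0.17 and no call, and such separation in either direction was found in 38.7% of all genes. The other 7 subunits overlapped between these groups.

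**Figure D2:**
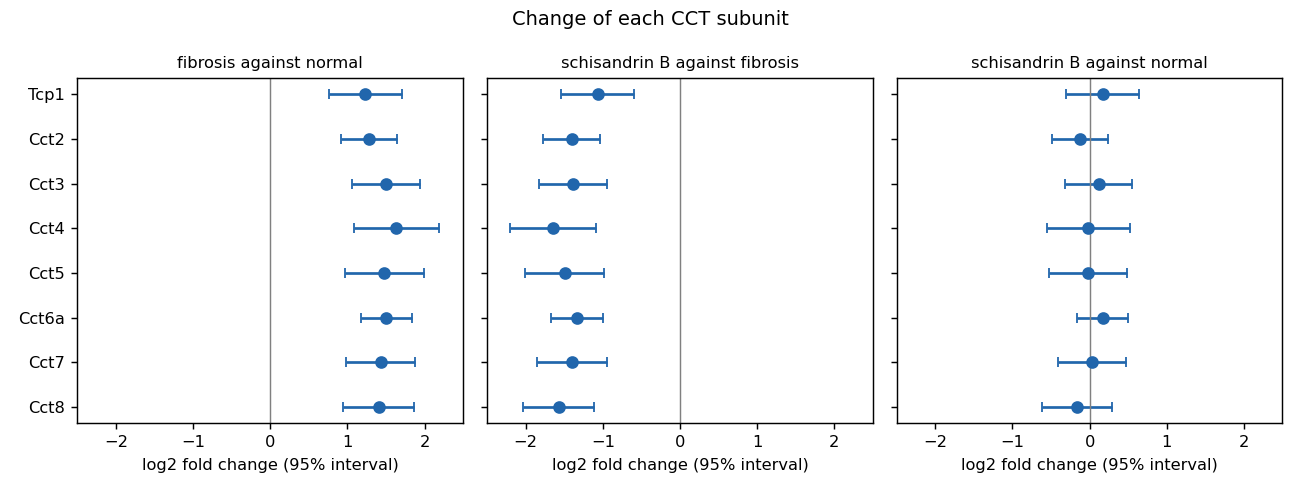
Log2 fold change of each CCT subunit (horizontal axes, points) with its 95% interval (bars) in the 3 comparisons, from edgeR's fit to all genes. The points lie between 1.23 and 1.63 for fibrosis against normal, between -1.65 and -1.06 for schisandrin B against fibrosis, and on both sides of 0 for schisandrin B against normal.

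Between fibrosis libraries and either other group most subunits kept overlapping shares of the complex while their level changed. Each subunit's share of the summed counts of the 8 was taken per library, a measure that does not depend on library scaling. Since transcript length enters a count, shares are compared between groups and not between genes. The share of Cct5 was 22.6 ± 0.37% with schisandrin B, 23.2 ± 0.83% in fibrosis and 22.9 ± 1.43% in normal libraries (SD, n = 3 each), and the groups overlapped. Shares of Cct3, Cct4, Cct5, Cct6a, Cct7 and Cct8 overlapped between fibrosis and normal libraries, as they did between schisandrin B and fibrosis libraries.

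Tcp1 was the exception in both comparisons. Its share was 6.26%, 6.72% and 5.56% in schisandrin B libraries, 4.90%, 4.67% and 4.58% in fibrosis libraries, and 5.25%, 5.92% and 5.54% in normal libraries. All 3 fibrosis libraries were below the 6 others. Cct2 took 9.53%, 11.2% and 11.57% in fibrosis libraries and 11.7%, 12.7% and 11.61% in normal libraries, which did not overlap. In fibrosis replicate 1 the share of Cct4 was 19.4%, beside 15.4% and 15.8% in the other fibrosis libraries, and that of Cct6a was 4.71%, beside 6.46% and 6.57%. Between schisandrin B and normal libraries, where the summed level ratio was 1.005, 4 of 8 shares did not overlap: Cct3 and Cct6a were higher with schisandrin B by 1.08 and 0.64 percentage points, and the differences for Cct2 and Cct8 were -1.09 and -0.93 points. In level, 38.7% of all genes did not overlap between these groups, and no such figure was computed for shares. These shares carry no test, and a share can only fall where another rises.

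**Figure D3:**
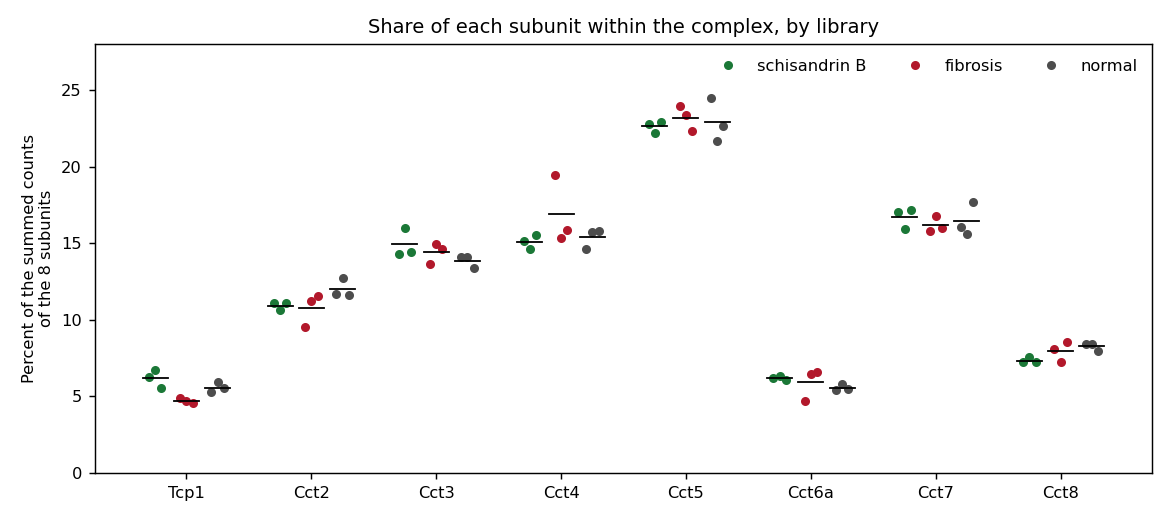
Share of each subunit in the summed counts of the 8 subunits (vertical axis, percent, from 0), with 1 point per library and a black line at the mean of each group. The 3 fibrosis libraries of Tcp1 lie below the 6 others, and fibrosis replicate 1 of Cct4, at 19.4%, lies above all other libraries of that gene.

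Reads of some subunits may be split with near-identical copies. The table held 16 rows named as pseudogenes of 5 subunits, and 8 of these rows had enough counts to be tested. Counts of Tcp1-ps1 amounted to 96.1% to 106% of those of Tcp1 with schisandrin B, 99.6% to 115% in fibrosis and 100% to 110.5% in normal livers. The 10 pseudogene rows of Cct6a together held 51.4% to 59.0% of the counts of Cct6a with schisandrin B, 66.5% to 67.9% in fibrosis and 45.8% to 62.1% in normal livers. Those of Cct7 held 9.39% to 15.0%, and those of Cct3 and Cct8 at most 2.15%. The single-gene levels of Tcp1, Cct6a and Cct7 are uncertain for this reason.

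Of the 8 pseudogene rows tested, 5 rose and 3 were not called in fibrosis against normal, beside 25.4% of all genes called higher. In schisandrin B against fibrosis 4 fell and 4 were not called, beside 24.8% of all genes called lower. The 8 rows not tested held at most 12 counts in a library. Tcp1-ps1 was at 35.6, 40.7 and 33.8 CPM in schisandrin B libraries, 104.4, 77.4 and 65.8 CPM in fibrosis libraries, and 38.8, 31.8 and 35.2 CPM in normal libraries. It rose by 1.23 ± 0.19 in fibrosis against normal and fell by 1.17 ± 0.19 in schisandrin B against fibrosis on the log2 scale. Cct6a-ps7 rose by 1.74 ± 0.21 and fell by 1.64 ± 0.21 in the same comparisons (edgeR adjusted p 5.28e-05 and 8.87e-05). With the pseudogene rows added to their genes, a choice made after the data had been seen, Tcp1 stood 1.23 higher and Cct6a 1.61 higher in fibrosis than in normal libraries on the log2 scale (edgeR adjusted p 0.000528 and 1.87e-05), and all 8 subunits were called as before. The mouse GENCODE annotation has an opposite-strand neighbour that overlaps Tcp1, Cct6a, Cct7 and Cct8, and whether the counting used strand is not given in the sources used here. Of these neighbours, chosen for their position, Mrpl18 beside Tcp1 and Pradc1 beside Cct7 were lower in fibrosis than in normal libraries, by -0.63 and -0.88 on the log2 scale. Psph beside Cct6a and Usp16 beside Cct8 were higher, by 2.45 and 1.81.

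**Figure D4:**
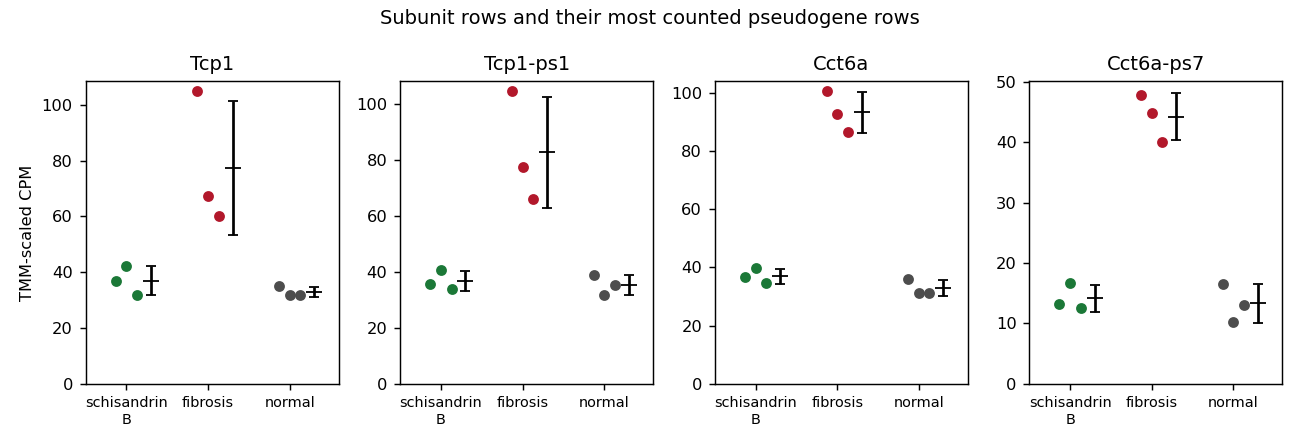
TMM-scaled CPM (vertical axes, from 0) of Tcp1 and Cct6a and of their most counted pseudogene rows, Tcp1-ps1 and Cct6a-ps7, in the schisandrin B, fibrosis and normal libraries; points are libraries and bars are mean ± SD. All 4 rows are highest in the 3 fibrosis libraries.

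Prefoldin, which delivers actin and tubulin chains to CCT, was called about as often as genes at large. Of its 6 subunit genes 3 rose, 0 fell and 3 were not called in fibrosis against normal, where 48.3% of all genes were called and 25.4% were higher, with a median log2 fold change of 0.25. Pfdn4 moved most, at 2.77, 3.43 and 2.65 CPM in schisandrin B libraries, 16.2, 9.08 and 8.34 CPM in fibrosis libraries, and 4.38, 3.05 and 2.51 CPM in normal libraries. It rose by 1.76 ± 0.33 in fibrosis against normal and fell by 1.91 ± 0.33 in schisandrin B against fibrosis, with edgeR adjusted p of 0.00105 and 0.000705. Pfdn2 rose by 0.73 ± 0.19 in fibrosis against normal. Pfdn1 rose by 0.54 ± 0.20, but its edgeR adjusted p of 0.0433 passed in only 5 of 18 alternatives (range 0.00131 to 0.134), and without fibrosis replicate 1 it was 0.129.

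In schisandrin B against fibrosis, 1 prefoldin gene rose, 1 fell and 4 were not called, where 22.5% of all genes were called higher. Vbp1, which encodes prefoldin subunit 3, was the one that rose, by 0.56 ± 0.19 with an edgeR adjusted p of 0.029, a call kept in 12 of 18 alternatives (range 0.00793 to 0.23) and lost without schisandrin B replicate 2 or 3 and without fibrosis replicate 2 or 3 (0.0916, 0.0887, 0.103 and 0.0769). Pfdn5 ranged from 36.6 to 42.7 CPM with schisandrin B, from 36.1 to 44.9 CPM in fibrosis and from 33.8 to 49.3 CPM in normal libraries. Pfdn6 ranged from 24.1 to 27.4, from 14.4 to 24.8 and from 17.4 to 22.8 CPM in the same order. Neither was called in any of the 3 comparisons. In schisandrin B against normal 0 of 6 prefoldin genes were called by edgeR, DESeq2 or limma voom, with 2 under an unadjusted p of 0.05. Over all genes edgeR called 10.5% there. With library totals alone 2 prefoldin genes were called, and without fibrosis replicate 1 also 2, beside 2814 of 15178 genes in the latter fit.

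The phosducin-like cofactors showed small differences. Their summed level was 33.9, 34.8 and 36.9 CPM in schisandrin B libraries, 45.4, 46.2 and 50.4 CPM in fibrosis libraries, and 39.3, 31.02 and 32.9 CPM in normal libraries, so the 3 fibrosis libraries lay above the 6 others. Of 4 genes Pdcl2 had 0 counts in every library. Of the 3 tested, 1 was called in each of the first 2 comparisons, beside 48.3% and 47.3% of all genes. All 3 had groups that did not overlap in schisandrin B against fibrosis, as did 56.8% of all genes. Pdcl3, a cofactor that binds CCT, rose by 0.63 ± 0.23 in fibrosis against normal with an edgeR adjusted p of 0.0417, and this call held in 9 of 18 alternatives (range 0.003 to 0.149). Txndc9, a thioredoxin-like CCT partner, fell by 0.50 ± 0.18 in schisandrin B against fibrosis with an edgeR adjusted p of 0.0395, also called in 9 of 18 (range 0.00832 to 0.133). Leaving out 1 library ended the call of Pdcl3 in 7 of 9 cases and that of Txndc9 in 6 of 9. Pdcl ranged from 3.84 to 5.07 CPM with schisandrin B, from 2.11 to 3.35 CPM in fibrosis and from 1.94 to 4.61 CPM in normal libraries, and it was not called.

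Actin and tubulin chains, the main clients of CCT, mostly rose in fibrosis libraries and fell in schisandrin B libraries. Of 13 chains tested 11 rose and 0 fell in fibrosis against normal, and 11 fell and 0 rose in schisandrin B against fibrosis, with median log2 fold changes of 1.92 and -2.28, beside 25.4% of all genes called higher and 24.8% called lower. In schisandrin B against normal 0 were called by edgeR or limma voom, with 2 under an unadjusted p of 0.05, beside 10.5% of all genes called by edgeR. DESeq2 called 1, and 1 was called with library totals alone. Without fibrosis replicate 1 the number was 2, beside 2814 of 15178 genes. Tubb6, a beta-tubulin, stood at 8.70, 5.83 and 7.30 CPM in schisandrin B libraries, 375, 208 and 200 CPM in fibrosis libraries, and 5.24, 2.57 and 3.56 CPM in normal libraries. It rose by 6.11 ± 0.37 in fibrosis against normal, the largest change on this list, and fell by 5.17 ± 0.35 in schisandrin B against fibrosis. Tubb4b, the beta-tubulin of cilia and many dividing tissues, stood at 42.2, 37.3 and 38.6 CPM with schisandrin B, 263, 239 and 209 CPM in fibrosis and 49.99, 37.7 and 46.7 CPM in normal libraries. Tubb2a rose by 3.30 ± 0.28 and fell by 3.20 ± 0.28 in these comparisons, and Tuba4a rose by 1.92 ± 0.26 and fell by 2.28 ± 0.27. Tubb3, known as the neuronal beta-tubulin, was below 1.2 CPM outside fibrosis and at 16.8, 18.8 and 20.3 CPM in fibrosis libraries. Tubulin genes are similar in sequence, so reads may be shared among them.

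The cytoplasmic actins, singled out after their values had been seen, went apart. Actg1, which encodes gamma-actin, stood at 40.04, 25.2 and 20.2 CPM in schisandrin B libraries, 319, 169.5 and 160.5 CPM in fibrosis libraries, and 45.8, 38.6 and 29.6 CPM in normal libraries. Actb, which encodes beta-actin, overlapped between all groups, at 391 to 724 CPM with schisandrin B, 430.4 to 608 CPM in fibrosis and 433 to 491 CPM in normal libraries, and was not called in any comparison (edgeR adjusted p 0.564 for fibrosis against normal). Of the 5 tubulin cofactors, which assemble the folded chains into dimers, 2 rose and 1 fell in fibrosis against normal, and 2 fell and 1 rose in schisandrin B against fibrosis, beside 48.3% and 47.3% of all genes called. Tbcc alone was called in schisandrin B against normal, where it fell by 0.66 ± 0.19 (edgeR adjusted p 0.0482), beside 10.5% of all genes. There limma voom called 0 of the 5, with 1 under an unadjusted p of 0.05. In that comparison the list held 1 call in 5 of 9 other settings and in 2 of 9 fits with 1 library left out, and 0 in the rest. Tbce and Tbcc, both needed for dimer assembly, rose by 1.08 ± 0.21 and 0.63 ± 0.19 and fell by 0.80 ± 0.21 and 1.29 ± 0.19. Tbcd went the other way, at -0.60 ± 0.16 and 0.57 ± 0.16. Tbca and Tbcb, which bind beta- and alpha-tubulin, were not called in any comparison. The Tbcc rise was lost without normal replicate 2 (edgeR adjusted p 0.071, range over 18 alternatives 0.00106 to 0.071), the Tbce fall without schisandrin B replicate 1 (0.0514, range 0.000817 to 0.0514), and both Tbcd calls with library totals alone (0.464, range 0.00255 to 0.464, and 0.198, range 0.00407 to 0.198).

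**Figure D5:**
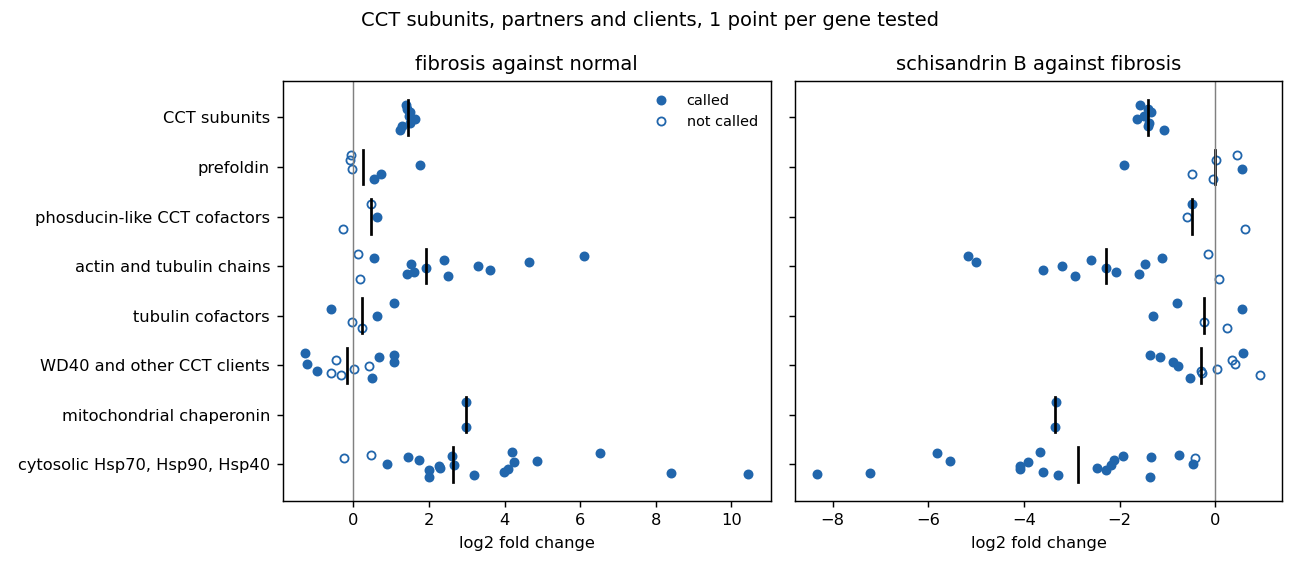
Log2 fold change (horizontal axes) of each tested gene of the CCT subunits and 7 related lists in fibrosis against normal and in schisandrin B against fibrosis; filled points passed the edgeR threshold, open points did not, and the black line is the list's median. The CCT medians are 1.45 and -1.40, those of prefoldin 0.25 and -0.01, and those of the actin and tubulin chains 1.92 and -2.28.

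WD40 and other client proteins were called in both directions when fibrosis was compared with either other group. Of 12 genes 4 rose and 3 fell in fibrosis against normal (median -0.15), and 1 rose and 5 fell in schisandrin B against fibrosis (median -0.29), against calls for 48.3% and 47.3% of all genes. Ppp2r2a, a WD40 subunit of protein phosphatase 2A, rose by 1.07 ± 0.21 and fell by 1.37 ± 0.21. Fzr1, a WD40 activator of the anaphase-promoting complex, rose by 1.07 ± 0.20 and fell by 0.88 ± 0.20. Stat3, a transcription factor folded by CCT, rose by 0.68 ± 0.21 and fell by 1.16 ± 0.21, and its rise was lost without normal replicate 2 (edgeR adjusted p 0.0881, range over 18 alternatives 0.000753 to 0.0881). Rptor, a WD40 subunit of the growth kinase complex mTORC1, fell by 0.78 ± 0.17 in schisandrin B against fibrosis, and stood 0.43 ± 0.17 higher in fibrosis than in normal libraries without a call (edgeR adjusted p 0.0528). Pebp1, an inhibitor of Raf kinase whose place among the clients is uncertain, fell by 1.28 ± 0.19 in fibrosis against normal. It rose by 0.58 ± 0.18 in schisandrin B against fibrosis, a call lost with library totals alone, without schisandrin B replicate 3 and without fibrosis replicate 3 (edgeR adjusted p 0.123, 0.0926 and 0.0609, range over 18 alternatives 0.00362 to 0.123). Of the 12, 2 were called in schisandrin B against normal, beside 10.5% of all genes. Pebp1 fell by 0.69 ± 0.18, and Gnb5, a WD40 G protein subunit, fell by 1.25 ± 0.31 (edgeR adjusted p 0.034 and 0.0246). With 1 library left out the number called there ranged from 0 to 3. With library totals alone 0 of the 12 were called there, with 3 under an unadjusted p of 0.05.

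Chaperones of other families also rose and fell. Hspd1 and Hspe1, the mitochondrial chaperonin and its lid, both rose in fibrosis against normal, by 2.99 ± 0.55 and 2.98 ± 0.64, and both fell in schisandrin B against fibrosis, by 3.35 ± 0.56 and 3.34 ± 0.65 (SE). Hspd1 stood at 83.4, 101 and 76.1 CPM in schisandrin B libraries, 1839, 431 and 382 CPM in fibrosis libraries, and 128, 99.4 and 106 CPM in normal libraries. One library set much of this size: without fibrosis replicate 1 the rises were 1.87 and 1.64 and the changes with schisandrin B against fibrosis were -2.23 for Hspd1 and -2 for Hspe1, all still called. A list of 20 genes held the cytosolic Hsp70, Hsp90 and Hsp40 machinery together with Hsf1, Hspb1 and Hspb8. Of the 20 genes 18 rose and 0 fell in fibrosis against normal, and 19 fell and 0 rose in schisandrin B against fibrosis. In schisandrin B against normal 0 were called by edgeR or limma voom. Over all genes 25.4% were higher, 24.8% lower and 10.5% called in these comparisons. In that last comparison 3 of the 20 had an unadjusted p under 0.05, 1 was called by DESeq2, 2 with library totals alone and 4 without fibrosis replicate 1. Without that library 2814 of 15178 genes were called there. Their median log2 fold changes in the first 2 comparisons were 2.63 and -2.88. Hsf1, the heat shock factor named above, was at 19.3, 18.01 and 14.8 CPM with schisandrin B, 58.4, 42 and 34.7 CPM in fibrosis and 11.1, 11.0 and 11.7 CPM in normal libraries. It rose by 1.99 ± 0.21 and fell by 1.37 ± 0.21 (edgeR adjusted p 2.58e-05 and 0.000299). The small heat shock proteins Hspb1 and Hspb8 rose by 6.53 ± 0.45 and 4.21 ± 0.42 in fibrosis against normal, and Hspa4, which exchanges nucleotide on Hsp70, rose by 2.31 ± 0.29. Without fibrosis replicate 1 the rise of Hspb8 was 3.49 and its fall with schisandrin B against fibrosis was -2.96, Hspb1 and Hspa4 rose by 5.98 and 1.86, and the list medians were 1.93 and -1.97, with 18 genes higher and 18 lower in these comparisons. Among chaperonin-like paralogs, Mkks, which serves assembly of a ciliary complex, fell by 0.76 ± 0.19 and rose by 0.75 ± 0.19, and both calls were lost with library totals alone (edgeR adjusted p 0.229, range 0.00142 to 0.229, and 0.0844, range 0.00173 to 0.0844). Bbs10 was not called, and Cct6b, Cct8l1 and Bbs12 held too few counts to be tested.

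The gene whose profile was most like that of the subunits was Hspa8, the constitutive cytosolic Hsp70. Likeness was the Pearson correlation over the 9 libraries between a gene's log2 CPM and the mean of the 8 subunits' standardised log2 CPM, among 5431 genes with a mean of at least 20 CPM. It carries no test, because the difference of the fibrosis libraries from the rest sets most of it. Hspa8 had a value of 0.999 and stood at 27.8, 33.1 and 23.6 CPM in schisandrin B libraries, 462, 196 and 163 CPM in fibrosis libraries, and 39, 25.1 and 25.6 CPM in normal libraries. LOC300249, Ggct, Tcp1-ps1, LOC688523 and Neurl3 followed at 0.996, 0.996, 0.996, 0.993 and 0.993. Likeness compares shape and not size: Hspa8 rose by 3.19 ± 0.39 and Ggct, a glutathione cycle enzyme, by 3.54 ± 0.34 in fibrosis against normal, but LOC300249 by 0.74 ± 0.16. Without fibrosis replicate 1 Hspa8 and LOC688523 rose by 2.59 and 2.73 in that comparison, against 3.19 and 3.54 with it. Set against the mean of the other 7, Cct3, Cct5 and Cct7 each ranked 5 among 5424 genes. Cct4 ranked 18, Cct2 24, Cct8 33, Cct6a 129 and Tcp1 156. Cct2, Cct4 and Cct5 had no row named as a pseudogene. Pseudogene counts amounted to at most 0.22% of those of Cct8, 2.15% of those of Cct3 and 15.0% of those of Cct7. They reached 67.9% for Cct6a and 115% for Tcp1, and their part in these ranks was not tested.

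Markers of several cell types also differed between groups, some in the direction of the subunits and some against it. The 10 hepatocyte markers summed to 190732 to 211465 CPM with schisandrin B, 70420 to 114207 CPM in fibrosis and 228606 to 265849 CPM in normal libraries, and 6 of 10 fell and 0 rose in fibrosis against normal. In that comparison 25.4% of all genes were called higher and 22.9% lower. The 5 cholangiocyte markers tested summed to 12.6 to 28.9 CPM with schisandrin B, 51.9 to 63.7 CPM in fibrosis and 19.8 to 23.2 CPM in normal libraries, with 3 higher and 0 lower in fibrosis against normal. The 4 neutrophil markers tested summed to 2.10 to 4.81, 16.6 to 22.3 and 3.73 to 9.31 CPM in the same order, with 2 higher and 0 lower. The 7 markers of dividing cells tested overlapped between groups at 28.1 to 33.4, 26.6 to 43.5 and 26.8 to 45.2 CPM, with 1 higher and 3 lower. The 9 stellate cell and fibroblast markers tested summed to 497 to 678, 283 to 465 and 264.5 to 419 CPM, with 3 higher and 1 lower. Macrophage markers had 0 higher and 1 lower of 7, endothelial markers 0 and 2 of 6, and T, NK and B cell markers 0 and 6 of 6. Their summed levels were 561 to 785, 666 to 1368 and 1011 to 1535 CPM for macrophages, 262 to 292, 236 to 283 and 309 to 420.1 CPM for endothelium, and 8.24 to 9.84, 3.10 to 4.70 and 9.89 to 14 CPM for T, NK and B cells. In schisandrin B against fibrosis 5 hepatocyte markers rose, and 2 cholangiocyte and 4 neutrophil markers fell, with no call in the other direction on these 3 lists. Over all genes 22.5% were called higher and 24.8% lower in this comparison. Of the stellate cell and fibroblast markers 4 rose, Col1a1, Col1a2, Col3a1 and Lrat, and 2 fell, Acta2 and Des, while 2 T, NK and B cell and 2 endothelial markers rose. Of the macrophage markers 0 were called there by edgeR or limma voom and 2 by DESeq2, with 3 under an unadjusted p of 0.05, and of the dividing cell markers 0 by any of these tools, with 0 under that p. None of the cholangiocyte or neutrophil markers was at 0 counts throughout a group. The part of these markers in the level of CCT was not tested.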

How the data were processed

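The deposited table holds the authors' raw counts, unnormalized whole numbers, for 37203 gene rows and 9 libraries, all of whose columns were used. Libraries followed standard Ion Proton protocols per the labels, and the submitters' processing notes name the build GRCm38. The organism label is mouse, but the strain is Wistar rat and the symbols are rat symbols. No source used here names the aligner, the counter or its strand setting. Samples were grouped by source name. Rat sequence and gene lengths were not used here.

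In R 4.3.3 with edgeR 4.0.16, filterByExpr left 14581 genes, TMM factors scaled the libraries, and a robust quasi-likelihood model with 1 mean per group was fitted to all 9. Genes with an adjusted p under 0.05 are called. The SE is the log2 fold change divided by the square root of F, and 95% intervals use the fit's degrees of freedom. Log2 CPM used a prior count of 2. The steps were tested on simulated data. DESeq2 1.42.0 and limma 3.58.1 served as alternatives, with other scalings, filters and library subsets. Named genes were all subunits, prefoldin and phosducin-like genes, the 5 with the lowest adjusted p of each other related list, and the 6 most like the subunits. Members and lists were chosen with earlier results of these data known. Figures used matplotlib 3.10.9.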

Additional observations from a re-analysis of the deposited data

How the results depend on the processing

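All 8 subunits were called higher in fibrosis against normal and lower in schisandrin B against fibrosis, and 0 in schisandrin B against normal, under each of 19 alternatives. Their log2 fold changes ranged over these from 0.95 to 2.03, from -1.88 to -0.79 and from -0.22 to 0.33. Library totals alone shifted the median of all genes by 0.43, -0.27 and 0.16 and the share of calls that were higher from 52.7%, 47.6% and 50.0% to 74.7%, 32.6% and 70.3%; upper-quartile factors shifted the median by -0.11 and 0.13 in the first 2. Relative to all genes the subunits' median was 1.42, -1.38 and 0.00 with TMM and 1.40, -1.36 and 0.01 with library totals.

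The summed CPM of the subunits moved to 835, 2287 and 832 (schisandrin B, fibrosis, normal) without the 20 most counted genes, to 582, 1890 and 518 with library totals, and to 666, 1813 and 660.1 when pseudogene rows were added. With those rows the mean share of Tcp1 was 11.03%, 8.81% and 10.36% in the same order, and fibrosis still overlapped neither other group. The Cct6a share difference in schisandrin B against fibrosis turned from 0.28 to -0.32 points, with overlapping groups in each case. In schisandrin B against normal, signs of uncalled subunits turned: Cct2 to 0.034, Cct4 to 0.15 and Cct5 to 0.14 with library totals, and Cct4 to 0.0057 and Cct5 to 0.00024 with upper-quartile factors. With 1 library left out, Cct4 ranged from -0.069 to 0.035, Cct5 from -0.13 to 0.13 and Cct7 from -0.073 to 0.099.

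Genes called in schisandrin B against normal numbered 1531, but 2951 with only the 2 groups in the fit, 2814 without fibrosis replicate 1 and 702 to 1004 without 1 schisandrin B or normal library, the 702 without schisandrin B replicate 3. Called genes of the related lists numbered 3 there, but 5 with library totals, 5 by DESeq2 and 11 with only the 2 groups, and 0 to 12 with 1 library left out, the 12 without fibrosis replicate 1. Per-length shares were not computed. No paired analysis was possible because the labels give no replicate numbers; those used here follow sample order. At 348 counts or more per subunit and library, counting error was at most 4.90% in a group, and it exceeded the spread between libraries for 3 subunits with schisandrin B. The causes of these differences were not tested.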
